A study of Mus musculus with 8 samples.

Results

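The synaptonemal complex and the chromosome axis were followed through 10 mouse genes chosen by symbol: Sycp1, Sycp2, Sycp3, Syce1, Syce2, Syce3, Tex12, Tex11, Hormad1 and Hormad2. Of these, 8 had rows among the 12583 genes of the 10 deposited tables of alternative splicing, which hold 1 table per cell stage and event type. Tex12 and Tex11 were not analysed here. The 8 genes had 95 of 52897 events in round spermatids and 143 of 66122 events in spermatocytes. Their rows were taken by symbol alone.

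Polyadenylated RNA was sequenced from germ cells that were sorted by Hoechst staining out of adult C57BL/6 testes. The labels give 4 groups of 2 libraries: Larp7 knock-out round spermatids, wild-type round spermatids, Larp7 knock-out spermatocytes and wild-type spermatocytes. LARP7 binds the 7SK and U6 small RNAs. The knock-out is called conditional, and the Cre line that drives it is not given in the sources used here, nor is it said that each library came from its own animal. Each table numbers its pair of sample groups as first and second without naming a genotype. They are therefore called the first and the second sample group, differences between them are first minus second, and no result is assigned to a genotype. An exon of Larp7 itself (125 nt, chromosome 3, 127544154 to 127544278, mm10) was included at 0.279% and 0.598% in the first group against 100% and 100% in the second in round spermatids. In spermatocytes these values were 2.4% and 0.951% against 100% and 100%. Reads summed over all events were between 49904607 and 102000320 per library, where a read can count in several events. The p-values set a difference against the spread between the 2 libraries of a group. For each event or gene, this spread was moderated by that of the others tested.

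In meiotic prophase each chromosome is folded along a protein axis, and the axes of paired homologues are then joined along their length by the synaptonemal complex. SYCP2 and SYCP3 build the axis, which becomes the lateral element of the complex. HORMAD1 and HORMAD2 sit on axes that are not yet joined and take part in the surveillance of synapsis, and HORMAD1 also promotes DNA break formation. SYCP1 dimers span the gap as transverse filaments, and SYCE1, SYCE2, SYCE3 and TEX12 form the central element that holds them together. TEX11 acts in crossover formation at the axis. The complex is taken apart before the meiotic divisions, so round spermatids carry no synaptonemal complex.

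The upstream sequences of the 4 genes that were called more abundant in the first group of spermatocytes (values below) are shown. Whether these sequences bear on the differences in abundance was not tested. Each is the 250 bases before a RefSeq start site (GRCm38.p6, the assembly of mm10), written 5′ to 3′ on the strand of the gene, with every match to a searched motif in capitals. Hormad1 lies at chr3:95559427-95559676 (plus strand), Sycp3 at chr10:88459337-88459586 (plus strand), Syce2 at chr8:84871861-84872110 (plus strand) and Sycp1 at chr3:102936101-102936350 (minus strand).
Hormad1: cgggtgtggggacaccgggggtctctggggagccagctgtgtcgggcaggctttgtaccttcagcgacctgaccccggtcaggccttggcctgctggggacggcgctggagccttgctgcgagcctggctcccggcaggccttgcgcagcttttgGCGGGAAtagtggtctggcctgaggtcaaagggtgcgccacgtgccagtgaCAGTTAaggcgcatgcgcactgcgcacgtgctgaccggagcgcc
Sycp3: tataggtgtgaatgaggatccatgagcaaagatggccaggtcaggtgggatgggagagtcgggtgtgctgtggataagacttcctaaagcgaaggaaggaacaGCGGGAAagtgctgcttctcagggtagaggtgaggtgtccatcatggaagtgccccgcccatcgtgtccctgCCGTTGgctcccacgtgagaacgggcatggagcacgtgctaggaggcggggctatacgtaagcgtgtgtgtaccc
Syce2: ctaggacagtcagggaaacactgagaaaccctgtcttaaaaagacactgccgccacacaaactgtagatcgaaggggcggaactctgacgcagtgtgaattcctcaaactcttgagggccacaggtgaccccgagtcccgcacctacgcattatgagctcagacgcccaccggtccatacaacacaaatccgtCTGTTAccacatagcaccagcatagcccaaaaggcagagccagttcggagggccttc
Sycp1: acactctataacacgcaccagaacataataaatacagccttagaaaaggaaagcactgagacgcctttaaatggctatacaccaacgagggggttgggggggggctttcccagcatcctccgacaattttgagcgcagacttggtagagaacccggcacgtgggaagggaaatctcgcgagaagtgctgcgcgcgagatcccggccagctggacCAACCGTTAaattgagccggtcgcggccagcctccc

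Both strands were searched for 4 motifs of factors known in germ cells. The E2F motif, TTCCCGC, occurred before a start of 4 of the 9 listed genes with a promoter (Hormad1, Sycp3, Syce2 and Tex12) and before 4.38% of 27025 genes. In the sequences above it reads GCGGGAA, 95 bases upstream in Hormad1 and 147 bases upstream in Sycp3. Syce2 has it only at its other start, 34 bases upstream, where it overlaps a STRA8 motif, CNCCTCAG, which occurred in Syce2 and Hormad2 and before 7.39% of all genes. The MYB motif, TAACNG or CAACNG, stood before 7 of the 9 genes and before 46.5% of all genes, and Sycp1 has a pair of overlapping matches 36 and 33 bases upstream. The cAMP response element, TGACGTCA, was in 0 of the 9 and before 1.77% of all genes. A match describes letters in these windows and is no measured binding. The windows with an E2F match had a GC content of 68.0% (Hormad1), 57.2% (Sycp3), 67.2% (Syce2) and 60.0% (Tex12). The median of all promoters was 52.4%, and the shares above are not matched for GC content.

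Levels were read from the event with the most reads of each gene. Its reads were scaled to a common library total over all genes' most covered events (CPM, as used throughout), and, to compare genes, divided by the length of the counted form (CPM per kilobase). In spermatocytes Syce1 (mean of 2541 CPM per kilobase) and Sycp3 (2507) stood highest, followed by Hormad1 (1232), Sycp2 (1169) and Sycp1 (845). Syce3 (232), Syce2 (188) and Hormad2 (68.6) were lower. Neighbours in this order overlapped in their 4 libraries except at a step below Sycp1, whose lowest library had 489.5 against a highest of 334 in Syce3, and at a step below Syce2, with 112 against 111 in Hormad2. The event of Sycp1 is a pair of exons that both sit in nearly every transcript, so its level per length counts such transcripts on both exons.

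In round spermatids the order was different. Syce1, the central element gene, stood apart with 2270 to 2609 CPM per kilobase in the 4 libraries. Syce2 (mean 347), Sycp3 (321), Sycp2 (312), Sycp1 (312) and Syce3 (308) overlapped one another, and Hormad1 (126) and Hormad2 (14.7) lay below them without overlap.

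**Figure D1:**
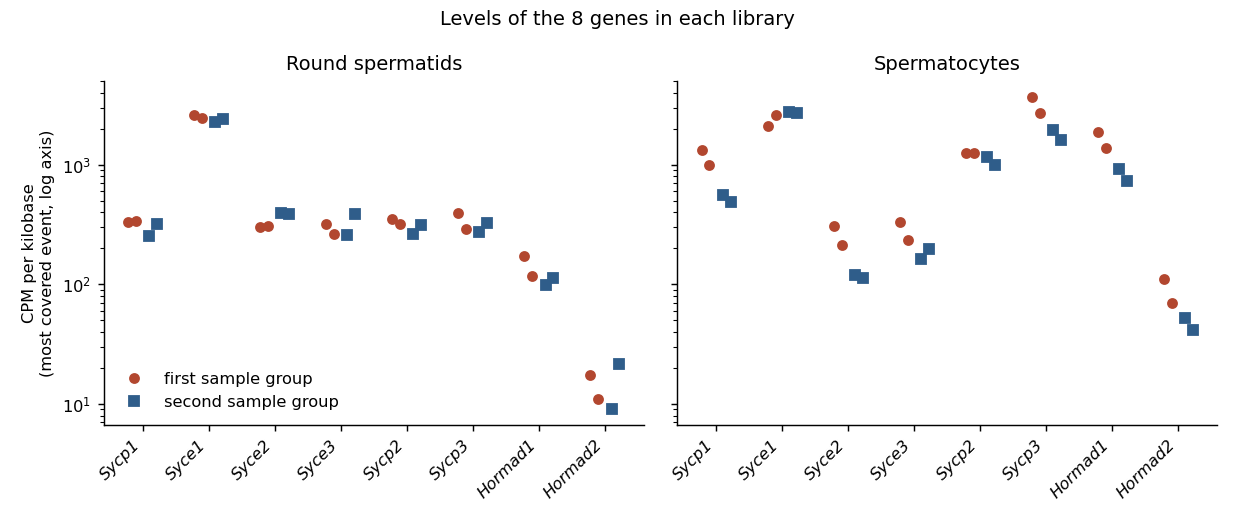
CPM per kilobase of the most covered event (log axis) for the 8 genes in each library of round spermatids (left) and spermatocytes (right); circles are the 2 libraries of the first sample group and squares those of the second. Syce1 has means of 2446 in round spermatids and 2541 in spermatocytes, while Hormad1 has a mean of 126 in round spermatids and 1232 in spermatocytes.

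Between the sample groups of spermatocytes, 4 of the 8 genes were called more abundant in the first group by limma (adjusted p below 0.05 over 9858 genes), and 0 were called lower. Of all genes tested 5.53% were called, 4.7% higher and 0.832% lower, and under median-ratio scaling, which brought the median of all genes from 0.16 to 0.01, 492 were higher and 283 lower in place of 463 and 82, with the same number of the 8 genes called. The 4 genes encode proteins of the transverse filament (Sycp1), the central element (Syce2) and the axis (Sycp3), and a HORMA-domain protein (Hormad1). Other genes of these parts were not called, namely Syce1, Syce3, Sycp2 and Hormad2. The median difference of the 8 genes was 0.87 on the log2 scale, beside 0.16 for all genes. In bulk RNA, fewer cells of a type and less RNA per cell cannot be told apart. The values below are CPM of each gene's most covered event.

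Sycp1, which encodes the transverse filament, had 415 and 306 CPM in the first group of spermatocytes against 175 and 152 CPM in the second. The groups did not overlap, as was so for 57.5% of all genes tested, and the difference was 1.13 on the log2 scale (SE 0.16, limma adjusted p = 0.00417). Syce2 of the central element had 88.2 and 60.2 CPM against 33.8 and 31.4 CPM (1.16, SE 0.20, limma adjusted p = 0.0114). Both genes were thus 2.19- and 2.23-fold higher in the first group. Their partners in the central region were not called. Syce3 had 85.9 and 60.1 CPM against 41.7 and 50.9 CPM (0.64, limma adjusted p = 0.0763), and Syce1 had 473 and 581 CPM against 618 and 605 CPM (−0.22, limma adjusted p = 0.342). Syce1 was the 1 gene of the 8 with a negative difference here.

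Sycp3, the axis protein, had 994 and 728 CPM in the first group of spermatocytes against 526 and 430 CPM in the second (0.84, SE 0.16, limma adjusted p = 0.0202). Sycp2, which forms the axis with it, had 711 and 717 CPM against 662 and 567 CPM (0.22, SE 0.13, limma adjusted p = 0.321). The groups of Sycp3 and of Sycp2 did not overlap, but the difference of Sycp2 lay near the median of all genes. Whether Sycp2 and Sycp3 differed from each other was not tested.

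Hormad1 had 747 and 552 CPM in the first group of spermatocytes against 366 and 290 CPM in the second (0.98, SE 0.17, limma adjusted p = 0.00988). Hormad2 was far less covered, with 26.3 and 16.4 CPM against 12.5 and 9.82 CPM, and its difference of 0.90 (SE 0.29) was not called (limma adjusted p = 0.0787). In each of the 4 called genes the first library of the first group was the highest of the 4 libraries.

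Markers of other cells took different courses in the same libraries. Of 8 spermatogonial markers tested 6 were called higher in the first group of spermatocytes, with summed levels of 493 and 185 CPM against 69.3 and 66.4 CPM, and 3 of 5 Sertoli markers were called higher, with 229 and 158 CPM against 49.7 and 87.9 CPM. Of both lists no marker with rows was at 0 in all libraries. Of 8 pachytene markers 0 were called, with summed levels of 12260 and 12320 CPM against 13640 and 11590 CPM. Of 4 Leydig, peritubular and immune markers 0 were called, with a median difference of 0.82. Summed levels of 2 lists were lower in the first group. Of 7 round spermatid markers 0 were called, with 1671 and 2095 CPM against 2198 and 2346 CPM. Of 3 elongating spermatid markers 0 were called, with 1711 and 2072 CPM against 2715 and 2432 CPM. The part of these cells in the differences of the 8 genes was not tested. With the first of the 2 libraries of the first group left out, 2 genes stayed called, Sycp1 (0.91, limma adjusted p = 0.0132) and Hormad1 (0.76, limma adjusted p = 0.0490), while Syce2 (limma adjusted p = 0.0999) and Sycp3 (limma adjusted p = 0.131) did not. Sycp3 was also not called without the second library of the second group (0.69, limma adjusted p = 0.0654). limma voom called 0 of the 8 (0.0609% of all genes; adjusted p between 0.0659 and 0.0933 for the 4 genes).

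In round spermatids 0 of the 8 genes were called between the sample groups by limma, as were 0.0859% of all 9312 genes. The lowest unadjusted p among the 8 was 0.0989, for Syce2. Their median difference was 0.15 on the log2 scale, beside 0.08 for all genes. Hormad1 had 69.1 and 45.9 CPM in the first group against 38.9 and 44.5 CPM in the second (0.43, SE 0.26, limma adjusted p = 0.575). It was called when the second library of the first group was left out (0.73, limma adjusted p = 0.0395). Sycp1 had 104 and 105 CPM against 79.2 and 98.4 CPM (0.24, limma adjusted p = 0.733), and Syce2 had 83.6 and 85.7 CPM against 113 and 108 CPM (−0.39, limma adjusted p = 0.549). The groups of Hormad1, Sycp1, Syce2, Syce1 and Sycp2 did not overlap, as was so for 42.9% of all genes tested. Whether the differences of spermatocytes and of round spermatids differ from each other was not tested.

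**Figure D2:**
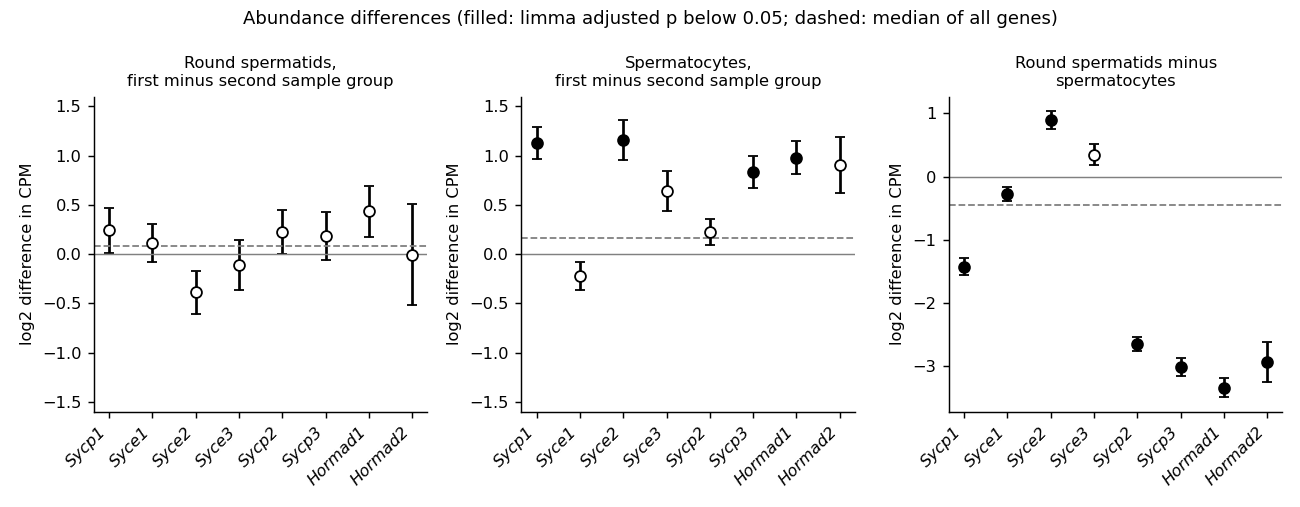
Differences in CPM (log2 scale, bars are 1 standard error) of the 8 genes between the sample groups of round spermatids (left) and of spermatocytes (middle), first minus second, and between round spermatids and spermatocytes (right); filled points passed limma at adjusted p below 0.05 and dashed lines are the medians of all genes. The filled points of spermatocytes lie between 0.84 and 1.16, and no point of round spermatids is filled.

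Between the stages, 7 of the 8 genes were called by limma, 1 higher and 6 lower in round spermatids, averaged over the sample groups. Of 8510 genes 78.2% were called, 28.5% higher and 49.8% lower, and under median-ratio scaling 3267 were higher and 3152 lower in place of 2424 and 4235. The median difference of the 8 genes was −2.03 on the log2 scale, beside −0.45 for all genes. Of 7 round spermatid markers tested 6 were called higher in round spermatids, with a median of 3.85. Values are scaled over the genes shared by both stages, and the 4 libraries of each stage are given in the order first group, second group.

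The axis genes fell most. Hormad1 had 77.6, 52.8, 44.7 and 51.2 CPM in round spermatids against 923, 676, 443 and 352 CPM in spermatocytes (−3.33, SE 0.16, limma adjusted p = 1.09e-09), 10.1-fold more in spermatocytes. Sycp3 had 118, 89.2, 83.9 and 99.8 CPM against 1228, 892, 637 and 524 CPM (−3.00, SE 0.14, limma adjusted p = 1.24e-09). Sycp2 had 121, 112, 92.1 and 110 CPM against 680, 681, 696 and 640 CPM (−2.64, SE 0.11, limma adjusted p = 5.40e-10). Hormad2 had between 1.40 and 3.12 CPM in round spermatids against 10.4 to 27.4 CPM in spermatocytes (−2.93, SE 0.32, limma adjusted p = 2.30e-06). The stages did not overlap in any of these 4 genes. The share of all genes or events without overlap between stages was not determined, here or for the comparisons of stages below.

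The genes of the central region took several courses. Sycp1 had 117, 121, 91.0 and 113 CPM in round spermatids against 513, 375, 212 and 185 CPM in spermatocytes (−1.42, SE 0.13, limma adjusted p = 6.21e-07), and its stages did not overlap. Syce2 went the other way, with 93.9, 98.6, 130 and 125 CPM in round spermatids against 109, 73.7, 41.0 and 38.2 CPM in spermatocytes (0.89, SE 0.14, limma adjusted p = 8.29e-05). The highest spermatocyte library of Syce2 lay within the range of round spermatids. In the first group the stages overlapped, with 93.9 and 98.6 CPM against 109 and 73.7 CPM. In the second group both round spermatid libraries lay above both spermatocyte libraries. Whether the stage difference of Syce2 differs between the groups was not tested.

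Syce1 had 600, 603, 515 and 578 CPM in round spermatids against 585, 712, 749 and 735 CPM in spermatocytes (−0.27, SE 0.11, limma adjusted p = 0.0312), and its stages overlapped. Under median-ratio scaling its difference was 0.16 and not called (limma adjusted p = 0.254). Syce3 had 93.3, 78.6, 76.3 and 115 CPM against 106, 73.7, 50.6 and 62.0 CPM (0.35, SE 0.17, limma adjusted p = 0.0801), and under median-ratio scaling it was called higher in round spermatids (0.78, limma adjusted p = 0.000676). That scaling brought the median of all genes from −0.45 to −0.02.

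Turning to splicing, most exons of these genes were included in nearly every transcript. Of their 68 cassette exon rows in round spermatids 55 had a mean inclusion above 95%, as did 25509 of 37615 rows of all genes. In spermatocytes these counts were 91 of 104 and 34295 of 47732. An exon can have several rows, and the cassette rows of the 8 genes cover 55 distinct exons in round spermatids and 69 in spermatocytes. The rest of the 8 genes' events were mostly pairs of mutually exclusive exons, 23 in round spermatids and 35 in spermatocytes, with median inclusions of 47.3% and 41.1%. Such a pair need not be exclusive. In 22 of the 23 and 28 of the 35 pairs both exons also had a cassette row above 95%, and reads on the body of each exon count towards its own form.

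Between the sample groups of spermatocytes 2 of 137 tested events of these genes were called by limma on log2 odds of inclusion, against 0.537% of all 61123 events. Both are cassette exons, 1 in Sycp2 and 1 in Hormad1, and they lay in opposite directions. The median log2 odds difference was −0.22 over the 137 events and −0.38 over all.

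The Sycp2 exon has 35 nt, which is not a multiple of 3 (chromosome 2, 178394949 to 178394983, minus strand, between exons ending at 178394258 and starting at 178395221). It had an inclusion of 75.9% and 78.1% in the first group of spermatocytes against 61.4% and 63.7% in the second. Counting reads, 1445 and 2706 included it and 372 and 615 skipped it in the first group, against 1343 and 1272 and 685 and 587 in the second. The groups did not overlap, as was so for 30.8% of all events tested, and the difference was 1.03 in log2 odds (SE 0.19, limma adjusted p = 8.44e-05). This is the same gene whose abundance did not pass the test.

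The Hormad1 exon has 55 nt, also no multiple of 3 (chromosome 3, 95585535 to 95585589, plus strand, between exons ending at 95585214 and starting at 95587381). Its inclusion was 13.8% and 16.2% in the first group of spermatocytes against 23.4% and 30.9% in the second. Skipping reads outnumbered inclusion reads in each of the 4 libraries, from 629 skipping against 386 inclusion reads to 3072 against 812. The groups did not overlap, and the difference was −0.99 in log2 odds (SE 0.20, limma adjusted p = 0.000434).

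Neither call held under every setting. Both were lost where the moderated spread followed total reads (limma adjusted p = 0.0718 for Sycp2 and 0.202 for Hormad1), without weights for the counts (0.129 and 0.190), with no minimum of reads (0.368 and 0.521) and with any 1 of the 4 libraries left out, where limma adjusted p ranged over 0.0836 to 0.729 and 0.309 to 0.729. Under each of these settings the direction was the same. Leaving out each library of the first group in turn gave 23 and 31 called events of these genes, with 11381 and 11332 over all genes. Leaving out each library of the second group gave 0.

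The quasi-binomial test called 3 events of these genes, against 0.584% of all. The third pairs an 84-nt exon of Hormad1 (95581507 to 95581590) with an exon that starts at 95585140, the one just upstream of the 55-nt exon. Inclusion stood at 73.9% and 79.7% in the first group against 83.0% and 90.7% in the second (quasi-binomial adjusted p = 0.0405, limma adjusted p = 0.0835). The authors' deposited table has 6 events of these genes at an FDR below 0.05 in spermatocytes, beside 4.96% of all 66122 events. Besides the events above, the authors' deposited table lists 1 of the rows of a 53-nt exon of Hormad1 (95561228 to 95561280), the one joined to a downstream exon from 95566621, which fell below the minimum of reads here with a mean of 6.75 reads, the 165-nt exon of Sycp1 described below and a pair of Sycp2 exons (178347573 to 178347654, with one from 178347776). In that Sycp2 pair the exon from 178347776 was the included one, at 62.1% and 65.6% against 73.2% and 71.6% (−0.55, SE 0.19, limma adjusted p = 0.232).

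**Figure D3:**
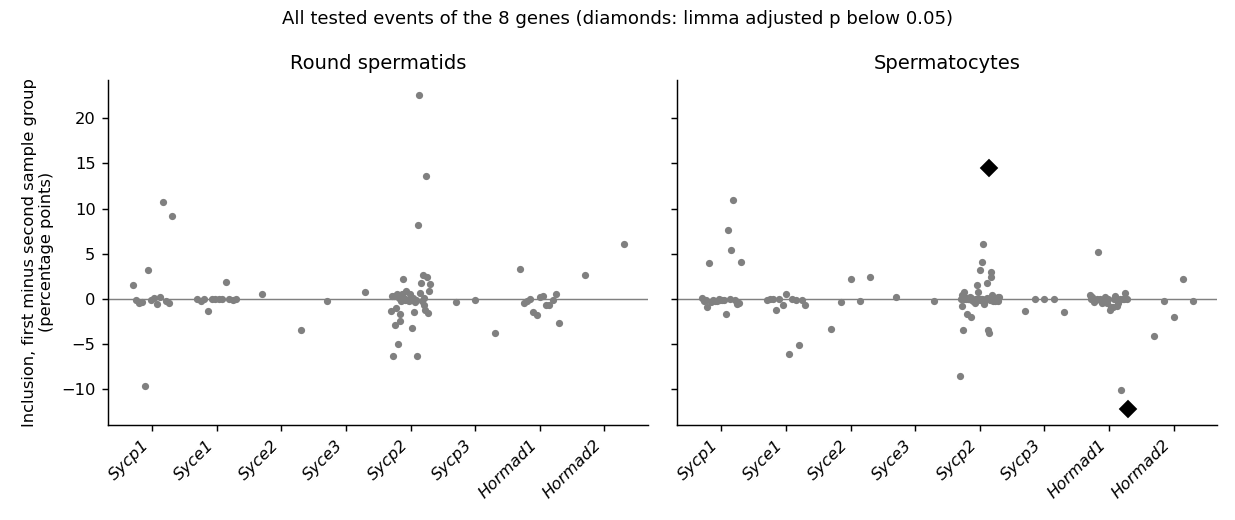
Inclusion of every tested event of the 8 genes, first minus second sample group in percentage points, for round spermatids (left, 91 events) and spermatocytes (right, 137 events); diamonds passed limma at adjusted p below 0.05. The diamonds of spermatocytes lie at 14.5 points in Sycp2 and −12.2 points in Hormad1.

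In round spermatids 0 of 91 tested events of these genes were called by limma (0.131% of all 48060 events) and 0 by the quasi-binomial test (0.133% of all). The authors' deposited table has 0 events of these genes at an FDR below 0.05 in this stage, beside 2.59% of all events. At an unadjusted p below 0.05 there were 5 of the 91 (5.49%), near the 5.88% of all events. The median log2 odds difference of the 91 was −0.16, beside −0.13 for all events.

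The 35-nt exon of Sycp2 was included at 85.3% and 84.6% in the first group of round spermatids against 77.4% and 76.2% in the second. Its groups did not overlap, as was so for 25.1% of all events tested, and its difference of 0.76 in log2 odds was not called (SE 0.35, limma adjusted p = 0.641). The 55-nt exon of Hormad1 had 30.0% and 44.7% against 36.8% and 43.2%, with overlapping groups (−0.17, SE 0.41, limma adjusted p = 0.869). Among the 91 tested events the widest gap, 22.5 points, lay in a Sycp2 exon pair with 76 reads of the rarer form in all (178395221 to 178395306 with an exon from 178401621). Inclusion there is that of the 25-nt exon from 178401621, at 47.4% and 64.6% against 27.8% and 39.1% (1.29, SE 0.59, limma adjusted p = 0.641). Leaving out each library of the first group in turn gave 15 and 13 called events of these genes, with 6589 and 3752 over all genes.

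Between the stages, 8 of 73 events found in both were called by limma, beside 12.5% of all 34455 events. In round spermatids 3 were higher (6.5% of all) and 5 lower (5.96% of all), and the median log2 odds difference was −0.07, beside 0.07 for all events. The quasi-binomial test called 7 (9.95% of all). All 8 are cassette exons, and they lie in Sycp1 (3), Sycp2 (3), Hormad1 (1) and Syce3 (1).

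Among the 73 events the widest change was in Sycp1. A 70-nt exon (chromosome 3, 102923001 to 102923070, minus strand) had an inclusion of 84.3%, 77.7%, 64.8% and 75.7% in the 4 round spermatid libraries against 99.4%, 98.4%, 99.5% and 98.6% in the spermatocyte libraries. Round spermatids had 29, 56, 62 and 34 reads that skipped it, and spermatocytes 7, 27, 4 and 7, although the inclusion reads were 156 to 286 in round spermatids and 736 to 2468 in spermatocytes. The stages did not overlap, and the difference was −4.77 in log2 odds (SE 0.37, limma adjusted p = 2.01e-34). Its length is no multiple of 3.

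A 165-nt exon of Sycp1 nearer to the start of the gene (102932643 to 102932807) had 95.3%, 91.6%, 93.0% and 94.4% in round spermatids against 98.2%, 98.2%, 99.8% and 100% in spermatocytes (−3.45, SE 0.60, limma adjusted p = 2.98e-07). Its length is a multiple of 3. Towards the other end of the gene a 117-nt exon (102854111 to 102854227) had 89.2%, 87.7%, 83.4% and 87.2% against 90.3%, 92.0%, 92.5% and 90.5% (−0.68, SE 0.21, limma adjusted p = 0.0137). All 3 called exons of Sycp1 were skipped more in round spermatids, and the calls of the 70-nt and 165-nt exons held under all 13 alternatives run, while that of the 117-nt exon held under 8.

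Of the 3 called exons of Sycp2, 2 were skipped more and 1 less in round spermatids. An 86-nt exon (chromosome 2, 178395838 to 178395923) had 97.4%, 95.2%, 98.3% and 95.6% in round spermatids against 99.4%, 98.9%, 98.9% and 98.5% in spermatocytes (−1.74, SE 0.36, limma adjusted p = 2.95e-05). These values are of its row joined to an exon from 178401621. Its row joined to an exon from 178401910 was not called (−1.44, limma adjusted p = 0.144). A 75-nt exon (178382333 to 178382407) had 94.96%, 96.9%, 97.8% and 96.8% against 98.6%, 98.2%, 98.6% and 99.2% (−1.26, SE 0.31, limma adjusted p = 0.000692). In both exons every round spermatid library lay below every spermatocyte library. The 35-nt exon, whose values are given above, was included more in round spermatids (0.86, SE 0.25, limma adjusted p = 0.00817), by 11.1 points on average, and 1 spermatocyte library, at 78.1%, lay inside the range of round spermatids. Over the 13 alternatives run, the 86-nt and the 35-nt exon were each called in 10 and the 75-nt exon in 12.

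The 55-nt exon of Hormad1 was included more in round spermatids, by 17.6 points on average (1.32, SE 0.27, limma adjusted p = 4.10e-05), and the highest spermatocyte library, at 30.9%, lay just above the lowest round spermatid library, at 30.0%. Thus the exon that separated the sample groups in spermatocytes was also called between stages, in Hormad1 as in Sycp2. Syce3 had 2 tested rows of a 109-nt exon (chromosome 15, 89397326 to 89397434). The row joined to an exon from 89410399 was not called (−0.49, limma adjusted p = 0.862). The row joined to an exon from 89410191 was called, with 99.6%, 99.7%, 100% and 99.9% in round spermatids against 99.0%, 99.0%, 100% and 97.5% in spermatocytes (2.49, SE 0.74, limma adjusted p = 0.009998). This call rests on 5 skipping reads in round spermatids and 21 in spermatocytes, was not made by the quasi-binomial test (adjusted p = 0.133) and shrank to 0.15 (limma adjusted p = 0.989) without the second library of the second group of spermatocytes. The 8 calls of these genes came down to 4, 5 and 4 without the second library of the first group and the first and the second library of the second group of round spermatids.

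**Figure D4:**
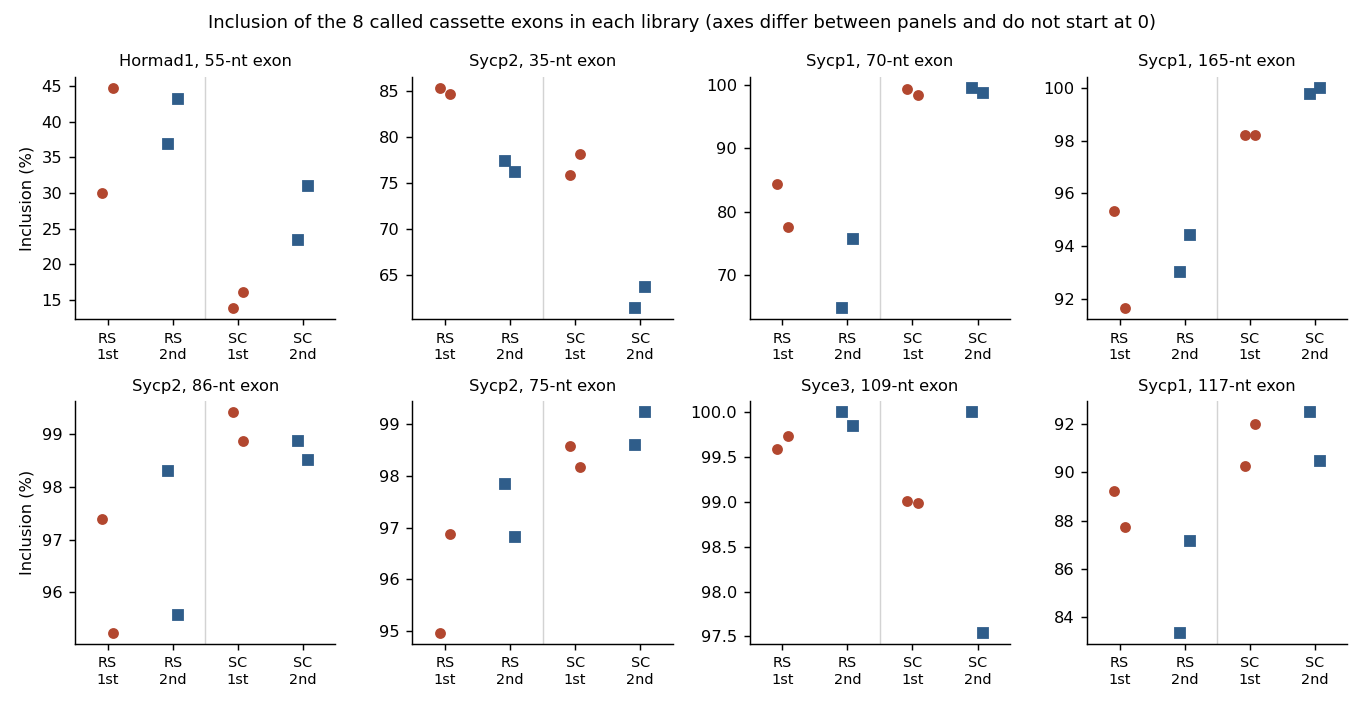
Inclusion in percent of the 8 cassette exons called between stages, in each library of round spermatids (RS) and spermatocytes (SC), with the first sample group as circles and the second as squares; each panel has its own axis. The 70-nt exon of Sycp1 lies between 64.8% and 84.3% in round spermatids and above 98% in spermatocytes, and the 35-nt exon of Sycp2 is higher in the first group of both stages.

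Other events of these genes were used at intermediate levels without passing a test. At the 5′ end of Sycp1 an alternative 3′ splice site that adds 6 nt (102935660 to 102935665) was used at 67.7% and 72.8% in the first group of round spermatids against 66.9% and 55.2% in the second, and at 66.4% and 65.9% against 62.5% and 61.5% in spermatocytes. A 154-nt exon of Syce2 (chromosome 8, 84883431 to 84883584) had 84.2% and 83.4% against 89.7% and 84.8% in round spermatids and 89.8% and 85.3% against 85.4% and 85.0% in spermatocytes. A 121-nt exon of Hormad2 (chromosome 11, 4425506 to 4425626) was mostly skipped, with 10.7% and 7.31% against 2.16% and 3.79% in round spermatids and 11.6% and 9.49% against 7.58% and 9.03% in spermatocytes. An intron of Sycp3 (chromosome 10, 88472781 to 88472904) had a retention of 13.8% and 25.8% in the first group of round spermatids against 22.9% and 24.2% in the second, but it also lies within Chpt1, a lipid synthesis gene, and the counting is not stated to use strand. Their limma adjusted p between groups and between stages were all above the threshold of 0.05, and none of these values separates the stages.

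Other genes of the axis and of synapsis and recombination were set beside the 8 as a list of 42. In the first group of spermatocytes 4 of 40 tested were called more abundant (4.7% of all genes) and 0 less, with a median of 0.21 beside 0.16 for all genes: Dmc1, the meiotic recombinase (3.67, SE 0.56), Mnd1 of its accessory complex (3.37, SE 0.46), Meiob, which binds single-stranded DNA (1.02, SE 0.25), and Fkbp6, an immunophilin (0.87, SE 0.19). Dmc1 stood at 31.6 and 13.0 CPM against 0.823 and 2.92 CPM. In spermatocytes 5 of 523 tested events of the 40 genes were called (0.956%, beside 0.537% of all events), in 3 genes: Stag3 of the meiotic cohesin, Cdk2 and Spo11, the enzyme that cuts DNA to start recombination. A cassette exon of Stag3 (138308827 to 138308928) had 86.9% and 86.6% against 94.1% and 95.7% (−1.45, limma adjusted p = 7.87e-05). In round spermatids 0 of 33 were called, for abundance and for splicing. Between stages 4 of 35 were called higher (28.5% of all genes) and 29 lower (49.8% of all genes) in round spermatids, with a median of −1.34 beside −0.45. Of their 245 events 32 were called (13.1%), near the 12.5% of all events. Rec8, a subunit of the meiotic cohesin, was higher in round spermatids (3.77, SE 0.20), while Spata22, the partner of Meiob (−5.19, SE 0.25), and Cdk2 (−4.43, SE 0.20) were lower.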

How the data were processed

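RNA libraries of 4 groups, 2 libraries each, were compared through 10 deposited splicing tables. STAR and the build mm10 are named in the submitters' processing notes, whereas the version of STAR and the program that made the tables are not given there. Each table cell holds the reads of both libraries of a group joined by a comma, as deposited by the authors, with no replicate number. The counts of inclusion and skipping reads, the inclusion fraction as a score, and the authors' p-value and FDR stand per event, per the file headers. Read counts, form lengths and fractions were used here, and recomputed fractions lay within 0.0005 of the deposited ones.

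Inclusion was computed as reads per form length. Log2 odds of inclusion, with 0.5 reads added on average, weighted by counting variance, were tested with limma 3.58.1 in R 4.3.3 over all events with at least 10 reads per library on average. Abundance was log2 CPM of the most covered event per gene (limma with trend, 0.5 reads added). The fold change of a low gene is understated by the added reads. Stage was tested over 8 libraries in 4 groups. Benjamini-Hochberg adjustment ran over all features, called below 0.05. Fits were tested on simulated data. Libraries of a group differed beyond sampling noise (median chi-square 1.65 to 2.60, against 0.455 without extra spread).

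All 10 members were named. Of each, the most covered event, each called event and otherwise the event with the most reads of the rarer form were chosen. Of the lists only called genes were named. Members and lists were chosen with earlier results of these data known. Alternatives were minimum reads, trend, weights, a quasi-binomial test, scaling, summed reads, voom, added reads and leaving out each library.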

Additional observations from a re-analysis of the deposited data

How the results depend on the processing

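No paired analysis was possible because the table columns carry no replicate numbers. In spermatocytes the 2 called events of the 8 genes became 0 with no minimum of reads, 0 with a trend on total reads and 0 without count weights, and 0 to 31 when 1 library was left out. Over all genes the 328 calls became 0, 0 and 21 under the first 3 of these settings. In round spermatids 0 to 15 events of the 8 genes were called when 1 library was left out, and over all genes the 63 calls became 0, 0 and 28 under those 3 settings. Between stages the 8 calls became 4 to 11 when 1 library was left out. Over all genes the 4294 calls became 2796 without count weights. The 4 genes called for abundance in spermatocytes became 0 with voom, which called 6 genes in all against 545, and 2 to 6 when 1 library was left out. Over all genes 852 were called with summed reads and 57 to 1554 when 1 library was left out. In round spermatids 0 to 1 of the 8 genes was called for abundance when 1 library was left out, with 15 to 1066 over all genes, which were 8 with all libraries and 17 with summed reads. The cause was not tested.

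Several differences that were not called changed sign when 1 library was left out. Event differences in spermatocytes then ran from −0.060 to 0.42 in Syce2, −0.19 to 0.031 in Sycp3, −0.16 to 0.017 in Syce1, −0.034 to 0.053 in Sycp1 and −3.46 to 1.24 in Syce3, which also had −1.07 without count weights. In round spermatids they ran from −0.31 to 0.26 in Syce1, −0.31 to 0.091 in Hormad1, −0.18 to 0.23 in Sycp2 and −0.945 to 0.17 in Sycp3. Abundance differences in round spermatids ran from −0.61 to 0.60 in Hormad2, −0.41 to 0.18 in Syce3 and −0.038 to 0.405 in Sycp3. Between stages event differences ran from −0.11 to 0.44 in Sycp3 and −0.27 to 0.11 in Syce2, and the abundance difference of Syce1 was 0.16 with median-ratio scaling. Leaving out 1 of 2 libraries leaves a lone sample that is assumed to vary like the others. Events under 10 reads per library were not tested, and near 100% inclusion the log2 odds rest on few skipping reads.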
